A study of Mus musculus with 10 samples.

Results

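Cathepsins are the main proteases of the lysosome, the acidic compartment in which cells degrade protein. This account covers 10 cathepsin genes, chosen by name, of 55487 distinct genes in the count table: Ctsa, Ctsb, Ctsc, Ctsd, Ctsf, Ctsh, Ctsk, Ctsl, Ctss and Ctsz. All 10 passed the filter on low counts. The tissue was mouse RPE/choroid, in which the retinal pigment epithelium (RPE) is collected with the vascular layer behind it. The 5 ADQ samples came from mice of genotype iDTR Adiponectin-Cre, in which the adiponectin promoter drives Cre, so that the inducible diphtheria toxin receptor is made in fat cells. The 5 control samples came from iDTR mice without that Cre. Both groups received diphtheria toxin intraperitoneally. For the Cre mice the toxin is described as daily over 7 weeks. The labels state no age. They do not say whether each library came from its own animal, and p-values therefore reflect variation among libraries that may in part be technical.

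Most cathepsins are made as inactive precursors, sorted to lysosomes by mannose 6-phosphate receptors and activated by cleavage in acid. In the RPE they take part in the daily breakdown of photoreceptor outer segments, where cathepsin D is a principal protease. In macrophages and dendritic cells they also cut antigen, and cathepsin S removes the invariant chain from MHC class II molecules. Ctsd encodes an aspartic protease and Ctsa a serine carboxypeptidase, and the other members are cysteine proteases of the papain family.

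Library totals ran from 43591245 to 64087660 counts in ADQ and from 47997064 to 50974422 in control, so counting error is small for these abundant genes. The lowest cathepsin count in any library was 3548. Markers of the RPE were abundant in every library, with a summed level of 28361 to 43082 CPM (counts scaled to library size with TMM) in ADQ and 33210 to 48403 CPM in control. All 6 fat cell markers averaged lower in ADQ, with 0 calls in the edgeR test described below, 2 in DESeq2 and 0 in limma voom. Of the 6, 4 had an unadjusted edgeR p under 0.05. Without control 5, edgeR called Adipoq, Plin1, Cidec, Cfd and Retn lower (edgeR adjusted p from 0.00523 to 0.0357). That fit called 41 lower of all 21048 genes tested. Fabp4, named after its values were seen, averaged 26.0 CPM in ADQ and 28.8 CPM in control, of mean sums of 34.3 and 83.5 CPM. Fat cell markers summed to 27.6 to 45.2 CPM in ADQ and 26.9 to 139 CPM in control, and the lowest control value was that of control 5. Control 5 also stood above the other controls in MHC class II genes. Cornea and conjunctiva markers summed to at most 1.41 CPM in ADQ but reached 1674 CPM in control, where control 2 had 1.44 CPM. Rod markers varied from 299.7 to 3355 CPM in ADQ and from 297 to 1673 CPM in control.

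The comparison asks whether cathepsin transcripts differed in the RPE/choroid complex after fat cells were targeted. None of the 10 passed over all genes with edgeR's quasi-likelihood test at an adjusted p of 0.05, and for none did the 5 ADQ libraries separate from the 5 controls. Over all 20684 genes tested, 0.74% were called higher and 0.087% lower, while 2.09% had every ADQ library above every control and 1.07% every ADQ library below. Among the 2012 genes at least as abundant as Ctsk, 0.746% were called higher and 0.0994% lower. At an unadjusted p under 0.05 there were 3 cathepsins, with Ctss and Ctsc higher and Ctsd lower in ADQ, against 13.8% of all genes. The log2 fold change was above 0 for 7 of the 10, against 51.8% of all genes. Its median over the 10 was 0.07, and that of all genes 0.01. Fold changes ran from 0.83 for Ctsd to 1.41 for Ctss. DESeq2 called 1 of the 10, Ctss, and limma voom with quality weights called Ctss and Ctsc. Over all genes DESeq2 called 502 higher and 266 lower of 41319 run, and voom 552 higher and 176 lower of 20684. The authors' deposited table, made with limma per its column names, also lists Ctss and Ctsc under 0.05, where it calls 3.79% of its genes higher and 1.63% lower.

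**Figure D1:**
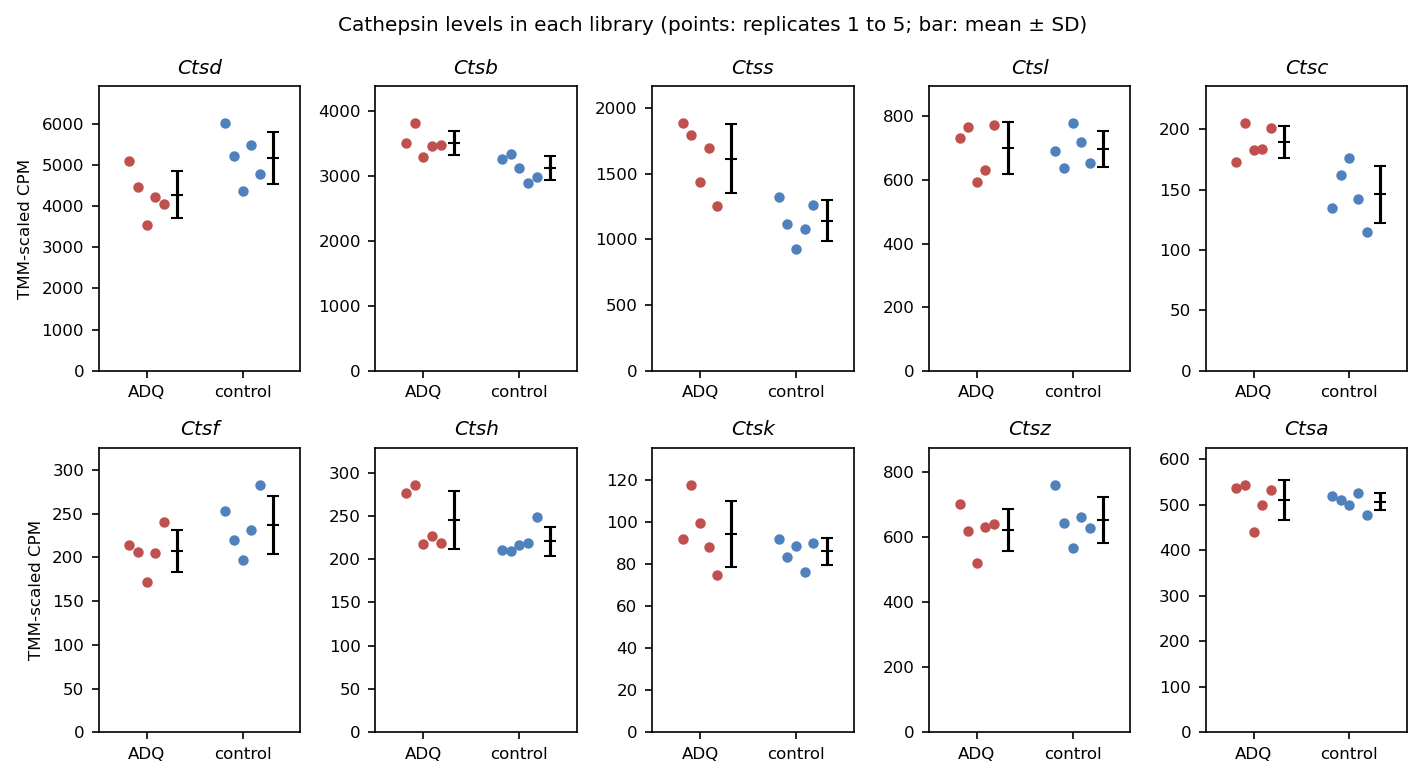
TMM-scaled CPM (y axis, each panel from 0) of the 10 cathepsins in the 5 ADQ and 5 control libraries; points are libraries in replicate order and the bar is the mean ± SD. Ctss and Ctsc have 4 ADQ libraries above every control and Ctsd has 3 ADQ libraries below every control, but no panel separates the groups.

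The total level of the cathepsins differed by less than the spread between libraries. Their summed level was 11956 ± 1083 CPM in ADQ and 11972 ± 855 CPM in control (SD, n = 5 each), or 1.20% of counts in either group. Ctsd made up 33.8 to 38.6% of the sum in ADQ and 39.9 to 45.5% in control, so its share was lower in every ADQ library. A share also moves with the other members, and the Ctsd level itself overlapped between the groups. Ctss made up 10.9 to 14.3% in ADQ and 8.50 to 11% in control, with ADQ 5 as the ADQ library inside the control range.

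Ctss encodes cathepsin S, which is made mainly by antigen-presenting cells and stays active at neutral pH. Its level was 1885, 1798, 1437, 1699 and 1251 CPM in ADQ 1 to 5, against 1324, 1120.3, 929.8, 1083 and 1265 CPM in control 1 to 5. ADQ 1 to 4 lay above every control, and ADQ 5 lay below control 1 and control 5. The means were 1614 ± 264 CPM in ADQ and 1145 ± 156 CPM in control, a 1.41-fold difference (log2 fold change 0.50, SE 0.13, 95% interval 0.21 to 0.78; edgeR adjusted p = 0.113). Leaving out 1 library at a time gave edgeR adjusted p-values from 0.0598 without ADQ 5 to 0.265 without ADQ 2. In the authors' deposited table the log2 fold change of Ctss is 0.54 (adjusted p = 0.0131).

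Of the macrophage and microglia markers, all 16 had a log2 fold change above 0. In edgeR 2 of them rose, Aif1 (1.89-fold, edgeR adjusted p = 0.00756) and the F4/80 gene Adgre1 (1.38-fold, edgeR adjusted p = 0.0476). Of the 16, 6 had an unadjusted edgeR p under 0.05, all of them higher, while DESeq2 called 4 higher and voom 3. The edgeR call on Adgre1 was lost whichever library was left out, with an edgeR adjusted p of 0.0549 without ADQ 1 to 0.144 without ADQ 2. Aif1 reached at most 0.0335. No marker was at 0 in all libraries. Their summed level ran from 7089 to 11109.5 CPM in ADQ and from 6431 to 8877 CPM in control. The ratio of Ctss to that sum was 0.157 to 0.217 in ADQ and 0.141 to 0.181 in control, so the groups overlapped. Most of the sum was Lyz2, named after its values were seen. It averaged 5765 of 8759.8 CPM in ADQ and 4856 of 7405 CPM in control, so the ratio says little on the other markers. In bulk tissue more cells of a type and more RNA per cell cannot be told apart, and the part of cell numbers in the Ctss difference was not tested.

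Ctss (ENSMUSG00000038642) lies on chromosome 3 at 95526786 to 95556403 on the plus strand (GRCm38, GENCODE M21), 17.4 kb after the end of Ctsk (95499256 to 95509362), a papain-family relative known for cutting collagen in osteoclasts. Ctsk was at 94.7 ± 15.8 CPM in ADQ and 86.3 ± 6.33 CPM in control (log2 fold change 0.13, 95% interval -0.10 to 0.37; edgeR adjusted p = 0.594). Its lowest library was ADQ 5 and its highest ADQ 2, so the ADQ libraries spread on both sides of the controls. Osteoclast markers had a summed level of 40.8 to 80.9 CPM in ADQ and 43.2 to 56.3 CPM in control, and 0 of 4 tested markers passed in edgeR, DESeq2 or voom or had an unadjusted edgeR p under 0.05. Of 7 fibroblast and sclera markers, 1 rose, the keratocan gene Kera (2.22-fold, edgeR adjusted p = 0.047, and up to 0.144 without ADQ 2), with a sum of 5593 to 10406 CPM in ADQ and 7135 to 8658 CPM in control. Their part in the Ctsk values was not tested. The ratio of Ctss to Ctsk, which no scaling of libraries can alter, was 14.4 to 20.5 in ADQ and 10.4 to 14.4 in control. On the log2 scale its lowest ADQ value was 3.85 and its highest control value 3.84, so it separated the groups by a narrow margin. Among 2011 genes with a mean level of at least that of Ctsk, 38.3% had a ratio to Ctss that was lower in every ADQ library. The separation is therefore not particular to this pair.

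The bases before the starts of these neighbours are shown because the 2 genes differ in the motifs they hold; capitals mark motif matches, and the sequences are RefSeq's on GRCm38.p6, plus strand, Ctss at chr3:95526536-95526785 and Ctsk at chr3:95498960-95499209.
Ctss: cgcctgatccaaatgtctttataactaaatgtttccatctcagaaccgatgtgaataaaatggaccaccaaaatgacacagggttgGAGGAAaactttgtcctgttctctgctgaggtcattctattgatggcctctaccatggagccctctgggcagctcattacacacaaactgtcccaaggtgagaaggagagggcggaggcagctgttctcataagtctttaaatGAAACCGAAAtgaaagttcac
Ctsk: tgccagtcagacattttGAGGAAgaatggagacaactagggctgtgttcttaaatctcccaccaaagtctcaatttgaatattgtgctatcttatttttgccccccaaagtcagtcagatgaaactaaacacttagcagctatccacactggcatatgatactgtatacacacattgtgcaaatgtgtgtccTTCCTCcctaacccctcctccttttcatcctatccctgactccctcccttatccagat
In the window from 250 bases before to 50 after the start, Ctss held 1 match to GAAA, any 2 bases, GAAA, the spaced repeat bound by interferon regulatory factors, beginning at position -21 from the start on the gene's strand. Of all 32851 RefSeq promoter windows 3.44% held that motif on either strand, and none of the other cathepsin windows did. Both genes held GAGGAA, a core of PU.1 sites in myeloid cells, which 28.3% of all windows hold. None of these matches overlapped. A match describes letters and is not a binding site.

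Ctsc encodes cathepsin C, or dipeptidyl peptidase I, which activates granule serine proteases of neutrophils, mast cells and cytotoxic lymphocytes. Its level was 173, 205, 183, 184 and 201 CPM in ADQ 1 to 5, against 135, 162, 176, 142 and 115 CPM in control 1 to 5. ADQ 1 lay below control 3, and the other ADQ libraries lay above every control. The fold change was 1.30 (log2 fold change 0.38, SE 0.11, 95% interval 0.14 to 0.61; edgeR adjusted p = 0.149, from 0.064 to 0.323 with 1 library left out). In the authors' deposited table the adjusted p of Ctsc is 0.0321. Control 5 was the lowest control in Ctsc, and the highest control in T and NK cell markers and in neutrophil markers. T and NK cell markers summed to 77.4 to 115 CPM in ADQ and 25.2 to 84.8 CPM in control, neutrophil markers to 8.93 to 16.1 CPM in ADQ and 6.37 to 13.7 CPM in control, and mast cell markers to 20.9 to 75.3 CPM in ADQ and 38.5 to 95.8 CPM in control. In edgeR 0 markers of these lists passed with all libraries. At an unadjusted edgeR p under 0.05, 6 of 8 T and NK cell markers and 1 of 3 neutrophil markers were higher in ADQ. At that threshold 2 of 6 mast cell markers were lower. DESeq2 called 1 T and NK cell marker higher and voom 5, and neither called any of the other lists. Without control 5, edgeR called 6 of the 8 T and NK cell markers higher, and 316 of all 21048 genes tested. The part of these cell types in the Ctsc difference was not tested.

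Ctsc lies on chromosome 7 at 88278085 to 88310888, plus strand. Its promoter window held 2 matches to GAGGAA, both on the opposite strand, at positions -196 and -149.

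Ctsd encodes cathepsin D, and per kb of transcript it had the highest level of the 10. It was at 5092, 4462, 3551, 4209 and 4038 CPM in ADQ 1 to 5, against 6010.2, 5213, 4367, 5471 and 4783 CPM in control 1 to 5. ADQ 3, 4 and 5 lay below every control, and ADQ 1 and 2 lay among the controls. The means were 4271 ± 567 CPM in ADQ and 5169 ± 631 CPM in control, a log2 fold change of -0.28 (SE 0.12, 95% interval -0.54 to -0.01; edgeR adjusted p = 0.344, from 0.138 to 0.593 with 1 library left out). The authors' deposited table lists Ctsd at -0.30 with an adjusted p of 0.072. The median log2 fold change over the 8 RPE markers was -0.15; 6 of them lay below 0, and 0 passed in edgeR, DESeq2 or voom or had an unadjusted edgeR p under 0.05. The ratio of Ctsd to the summed RPE markers was 0.121 ± 0.00944 in ADQ and 0.124 ± 0.00917 in control (SD, n = 5 each), a difference smaller than the spread. Most of that sum was Rgr and Ttr, named after their values were seen (14703 and 10253 CPM of a mean 35337 CPM in ADQ). Their log2 fold changes were -0.24 and -0.32, and those of the other markers ran from -0.23 to 0.12. The part of RPE content in the Ctsd difference was not tested. Ctsd overlaps the predicted gene Gm49369 on the same strand (chromosome 7, 142375911 to 142388038, minus strand), so reads of these 2 genes may have been shared.

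The balance of Ctss against Ctsd separated the groups. Its log2 ratio was -1.43, -1.31, -1.31, -1.31 and -1.69 in ADQ 1 to 5, against -2.18, -2.22, -2.23, -2.34 and -1.92 in control 1 to 5. Every ADQ value lay above every control value, and the nearest were ADQ 5 and control 5. The mean log2 ratio was -1.41 in ADQ and -2.18 in control, a 1.70-fold difference. Of the 45 ratios between 2 cathepsins, 4 (8.89%) separated the groups: Ctss, Ctsh and Ctsz against Ctsd, and Ctss against Ctsk. Among 2011 genes with a mean level of at least that of Ctsk, 4.57% had a ratio to Ctsd that was higher in every ADQ library and 0.0497% one that was lower, while 3 of the 9 other cathepsins were among those higher. For the ratio to Ctss, 38.3% of those genes were lower in every ADQ library and 0.298% higher, and 2 of the 9 other cathepsins were lower. The ratios were examined after the levels were known and were not tested.

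**Figure D2:**
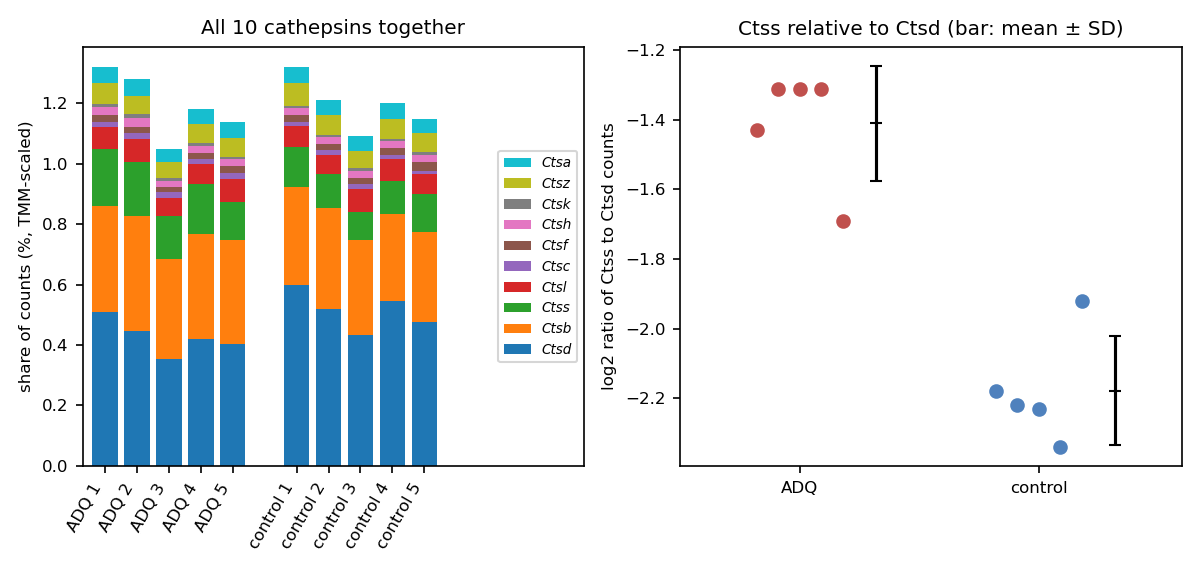
Left, share of TMM-scaled counts (%) taken by the 10 cathepsins in each library, stacked by gene, ADQ libraries left of the controls. Right, log2 ratio of Ctss to Ctsd counts per library with mean ± SD: the 5 ADQ libraries lie between -1.69 and -1.31, above the 5 controls at -2.34 to -1.92, while the total share spans 1.05 to 1.32% in ADQ and 1.09 to 1.32% in control.

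Ctsb and Ctsl encode the broad endopeptidases cathepsins B and L. Ctsb was at 3499, 3807, 3283, 3463 and 3471 CPM in ADQ 1 to 5, against 3251, 3337, 3125, 2895 and 2974 CPM in control 1 to 5. ADQ 3 lay below control 2, and the other ADQ libraries lay above every control. The fold change of 1.12 had a 95% interval of 0.98 to 1.29 (edgeR adjusted p = 0.42). Ctsl averaged 699 ± 81.8 CPM in ADQ and 696 ± 56.3 CPM in control (SD, n = 5 each; fold change 1.00, 95% interval 0.86 to 1.17; edgeR adjusted p = 0.984). Its sign turned with the scaling, since the log2 fold change was 0.01 with TMM and -0.0015 with RLE. Ctsb lies on chromosome 14 at 63122462 to 63145923 and overlaps Fdft1, a cholesterol synthesis gene, on the opposite strand; as the strand setting of the counting is not given, reads in the overlap may belong to either gene. The same holds for Ctsa (Neurl2, Pltp), Ctsc (Gm26522), Ctsl (Gm47123) and Ctsz (Nelfcd).

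Ctsh, Ctsz and Ctsa encode enzymes that trim protein ends, an aminopeptidase and a pair of carboxypeptidases, and Ctsa also protects lysosomal neuraminidase and galactosidase. Ctsh was at 276, 286, 218, 227 and 219 CPM in ADQ 1 to 5, against 210, 209, 216, 219 and 249 CPM in control 1 to 5. ADQ 1 and 2 lay above every control, and control 5 lay above ADQ 3, 4 and 5. Its fold change was 1.11 (95% interval 0.96 to 1.29; edgeR adjusted p = 0.508). Ctsz averaged 621 ± 65.2 CPM in ADQ and 651 ± 70.8 CPM in control, with a fold change of 0.95 (95% interval 0.82 to 1.11; edgeR adjusted p = 0.793). Ctsa averaged 510.5 ± 43.1 CPM in ADQ and 506 ± 18.9 CPM in control, with a fold change of 1.01 (95% interval 0.89 to 1.14; edgeR adjusted p = 0.962). The interval of Ctsa was the narrowest of the 10. The log2 ratio of Ctsz to Ctsd varied little inside each group, with values of -2.86 to -2.66 in ADQ and -3.05 to -2.93 in control.

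Ctsf encodes a cysteine cathepsin with a long propeptide. It averaged 208 ± 24.3 CPM in ADQ and 237 ± 32.9 CPM in control (SD, n = 5 each), a fold change of 0.88 (95% interval 0.74 to 1.04; edgeR adjusted p = 0.458). Control 5 was the highest control and ADQ 5 the highest ADQ library. Ctsf (chromosome 19, 4855130 to 4860918, plus strand) is shown for the CACGTG core bound by TFEB and its relatives, which drive lysosomal genes; the stretch ends before the first annotated exon (chr19:4854915-4855129, RefSeq, GRCm38.p6), and capitals mark the match.
Ctsf: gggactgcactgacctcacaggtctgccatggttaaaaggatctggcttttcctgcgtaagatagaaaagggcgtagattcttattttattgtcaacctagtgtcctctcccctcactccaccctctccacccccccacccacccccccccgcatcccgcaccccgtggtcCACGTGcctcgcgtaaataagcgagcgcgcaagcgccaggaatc
CACGTG occurred in the windows of Ctsa, Ctsd, Ctsf and Ctsl, 4 of the 8 members with a RefSeq window, and in 7.15% of all windows. Ctsd held 2 matches, at positions -245 and -98, and Ctsa 2, at -12 and 6, in the downstream one of its 2 windows.

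**Figure D3:**
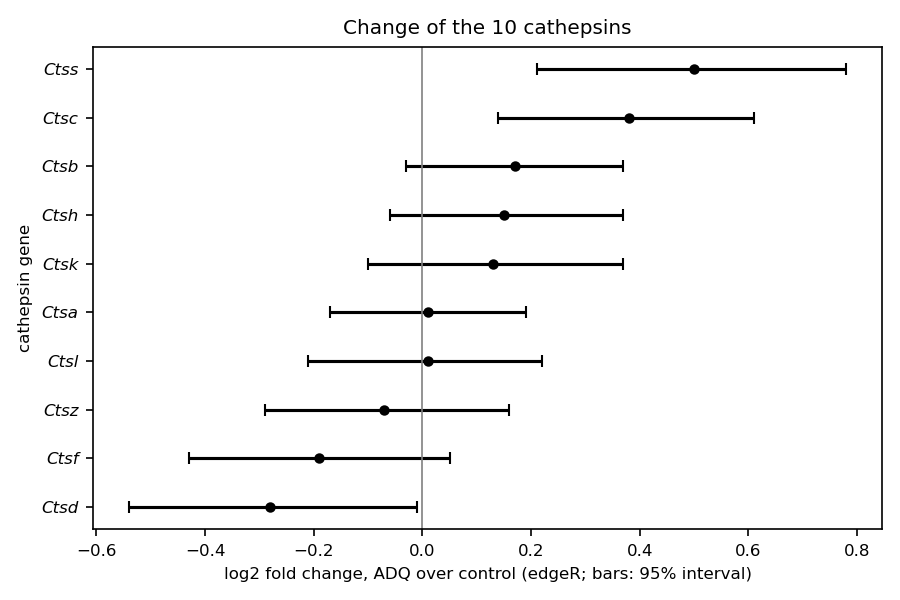
Log2 fold change of each cathepsin, ADQ over control (x axis), from edgeR with 95% intervals, ordered by size. Ctss (0.50) and Ctsc (0.38) have intervals above 0 and Ctsd (-0.28) one below 0 before adjustment over 20684 genes; the other intervals hold 0.

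Levels per kb of the principal GENCODE M21 transcript allow the members to be ranked. Ctsd was highest, at 2008 ± 267 CPM per kb in ADQ and 2430.1 ± 297 CPM per kb in control (SD, n = 5 each). Ctss followed at 1191 ± 195 CPM per kb in ADQ and 845 ± 115 in control, then Ctsb at 739 ± 39.9 in ADQ and 657 ± 38.9 in control, and Ctsz at 431 ± 45.2 in ADQ and 452 ± 49.2 in control. The ranges of Ctss and Ctsb did not overlap in ADQ but did in control, while the ranges of Ctsd and Ctss, and of Ctsb and Ctsz, did not overlap in either group. Ctsa, Ctsh, Ctsf and Ctsl lay together at 105 to 152 CPM per kb in ADQ and 113 to 139 CPM per kb in control, and each overlapped its neighbour in the control order. Ctsc and Ctsk were lowest, at 75.9 and 62.6 CPM per kb in ADQ and 58.5 and 57.1 CPM per kb in control. With the union of all annotated exons as length, an alternative chosen after seeing the data, the first 4 places were the same, and Ctsh and Ctsf fell behind Ctsl and Ctsk, so the order of the lower members depends on the transcript assumed.

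Of 13 other cathepsin genes, 3 passed the filter on low counts. EdgeR called 0 of them, with 2 at an unadjusted p under 0.05, while DESeq2 and voom each called 1 higher, Ctsw. Ctsw, a cathepsin of T and NK cells, was at 20.8, 14.9, 13.3, 14.5 and 12.9 CPM in ADQ 1 to 5, against 4.24, 3.32, 3.69, 6.14 and 13.7 CPM in control 1 to 5 (log2 fold change 1.29; edgeR adjusted p = 0.169). Without control 5 it passed, with a log2 fold change of 1.81 and an edgeR adjusted p of 0.000355. Control 5 lay among the ADQ libraries and the other controls lay below them. In the summed T and NK cell markers control 5 had 84.8 CPM and the other controls at most 37.3 CPM. In the summed MHC class II genes it had 4769.9 CPM and the other controls at most 2126 CPM. The part of T and NK cells in the Ctsw values was not tested. Ctso was at 56.8 ± 8.21 CPM in ADQ and 53.2 ± 4.66 CPM in control (SD, n = 5; edgeR adjusted p = 0.713). Ctse, of epithelia and lymphoid cells, had 20 to 62 counts in ADQ and 4 to 26 in control (edgeR adjusted p = 0.314). The neutrophil and mast cell cathepsin Ctsg had 0 to 6 counts in ADQ and 0 to 6 in control, and the 9 cathepsins of the mouse placental cluster had at most 2 counts in any library.

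Among cathepsin inhibitors, 0 of 8 tested passed in edgeR, with 3 above and 5 below 0, a median log2 fold change of -0.14 and 5 at an unadjusted p under 0.05. The other tools made calls here: voom called Serpinb9 and Serpina3g higher, and DESeq2, run without the filter on low counts, called Serpinb9 higher and 4 genes lower, Serpinb1a and the sparse genes Csta1, Serpinb3a and Stfa1, which edgeR did not test. Cst3, which encodes cystatin C, a secreted inhibitor that the RPE makes in quantity, was at 11058 ± 2213 CPM in ADQ and 13916 ± 2638 CPM in control (SD, n = 5; edgeR adjusted p = 0.393); it was named after its values were seen. Serpinb9, a granzyme B inhibitor, was at 40.1 ± 4.73 CPM in ADQ and 30.3 ± 2.38 CPM in control, and every ADQ library lay above every control (log2 fold change 0.41, edgeR adjusted p = 0.0772, and 0.0412 without ADQ 1). Serpina3g was at 15.4 ± 4.38 CPM in ADQ and 5.81 ± 4.65 CPM in control (edgeR adjusted p = 0.209, and 0.000309 without control 5). Cst7, or cystatin F, which holds cathepsin C in check in immune cells, was at 4.40 ± 2.12 CPM in ADQ and 2.34 ± 1.06 CPM in control (edgeR adjusted p = 0.29). Serpinb1a, which blocks neutrophil proteases, was at 11.3 ± 1.16 CPM in ADQ and 17.4 ± 5.04 CPM in control (edgeR adjusted p = 0.121).

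Genes that activate cathepsins or deliver them to lysosomes gave 0 of 10 calls in edgeR, DESeq2 and voom, 2 at an unadjusted edgeR p under 0.05 and a median log2 fold change of 0.10. Lgmn, or legumain, which cleaves cathepsin precursors, was at 254 ± 25.9 CPM in ADQ and 216 ± 12.9 CPM in control (edgeR adjusted p = 0.272). Grn, whose product progranulin enters lysosomes and aids cathepsin D, was at 344 ± 23.0 CPM in ADQ and 296 ± 15.9 CPM in control, and its groups did not overlap (edgeR adjusted p = 0.264). Psap, which encodes the saposin precursor, was at 4381 ± 374 CPM in ADQ and 3905 ± 355 CPM in control, and Gnptab, of the mannose 6-phosphate tagging enzyme, at 18.9 ± 3.49 CPM in ADQ and 16.1 ± 1.96 CPM in control (edgeR adjusted p = 0.486 and 0.445).

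Of 24 other lysosomal hydrolases 0 passed in edgeR, with 14 above and 10 below 0, a median log2 fold change of 0.04 and 3 at an unadjusted p under 0.05. DESeq2 and voom each called 1 higher, the mannosidase gene Man2b1. It had the smallest edgeR p of the list, at 214 ± 9.91 CPM in ADQ and 175 ± 8.90 CPM in control, whose groups did not overlap (log2 fold change 0.29, edgeR adjusted p = 0.105). Ids, which encodes iduronate sulfatase, was at 42.7 ± 5.32 CPM in ADQ and 37.7 ± 4.08 CPM in control (edgeR adjusted p = 0.452). Of 17 genes of the lysosomal membrane, the proton pump and the TFEB family 0 passed in edgeR, DESeq2 or voom, with 2 at an unadjusted edgeR p under 0.05 and a median log2 fold change of 0.02. The pump subunit Atp6v0d1 was at 228 ± 27.5 CPM in ADQ and 267 ± 21.2 CPM in control, its macrophage and osteoclast relative Atp6v0d2 at 79.0 ± 14.5 in ADQ and 64.0 ± 11.9 in control, the chloride exchanger gene Clcn7 at 132 ± 16.5 in ADQ and 110 ± 18.2 in control, and the calcium channel gene Mcoln1 at 84.9 ± 5.01 in ADQ and 94.8 ± 4.70 in control (edgeR adjusted p from 0.326 to 0.393). Tfeb itself was at 46.6 ± 3.14 CPM in ADQ and 46.3 ± 4.67 CPM in control; it was named after its value was seen.

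The MHC class II list holds the invariant chain, a substrate of cathepsin S, and genes of the same pathway. All 9 genes of the MHC class II list had a log2 fold change above 0, with a median of 1.28, and 4 of 9 rose: H2-DMb2 (2.42-fold, edgeR adjusted p = 0.00756), H2-DMb1 (1.76-fold, 0.011), H2-Oa (3.26-fold, 0.0264) and H2-DMa (2.45-fold, 0.0332). The H2-DM genes encode DM, the chaperone that exchanges peptide after cathepsins have cut the invariant chain, and H2-Oa a chain of DO, a regulator of DM. The edgeR calls on H2-DMa and H2-Oa lay near the threshold. Of the fits with 1 library left out, H2-DMa passed only without control 5 (edgeR adjusted p = 0.0554 to 0.0959 otherwise, log2 fold change 1.19 to 1.35). H2-Oa was lost in 6 of 10 such fits, with up to 0.0912 without ADQ 2 and a log2 fold change of 1.58 to 1.72. H2-DMb2 and H2-DMb1 stayed under 0.05 in each. DESeq2 and voom called 9 of the 9 higher, where over all genes they called 502 and 552 higher. Cd74, the invariant chain itself, named after its values were seen, was at 3692, 3287, 2404, 2929.6 and 2644 CPM in ADQ 1 to 5, against 885, 883, 819, 1056 and 2570 CPM in control 1 to 5 (log2 fold change 1.27, edgeR adjusted p = 0.112). Control 5 alone among the controls lay within the ADQ range. The list's summed level was 4525 to 6996 CPM in ADQ and 1598 to 4769.9 CPM in control, and without control 5 the highest control was 2126 CPM. Without control 5, 9 of the 9 list members rose, Cd74 among them (edgeR adjusted p = 2.7e-05), while 0 of the 10 cathepsins did (Ctss 0.101). That fit called 316 higher and 41 lower of all 21048 genes tested, a share at which few or no calls among 10 genes are usual. Among dendritic cell markers 1 of 7 rose in edgeR, Xcr1 (4.30-fold, edgeR adjusted p = 0.0141, 0.0509 without ADQ 2 and 0.0577 without control 4). Of the 7, 5 had an unadjusted edgeR p under 0.05, all of them higher. DESeq2 called 5 of the 7 higher and voom 3, Xcr1 among them. The dendritic cell markers summed to 70.8 to 81.8 CPM in ADQ and 44.9 to 60.8 CPM in control.

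**Figure D4:**
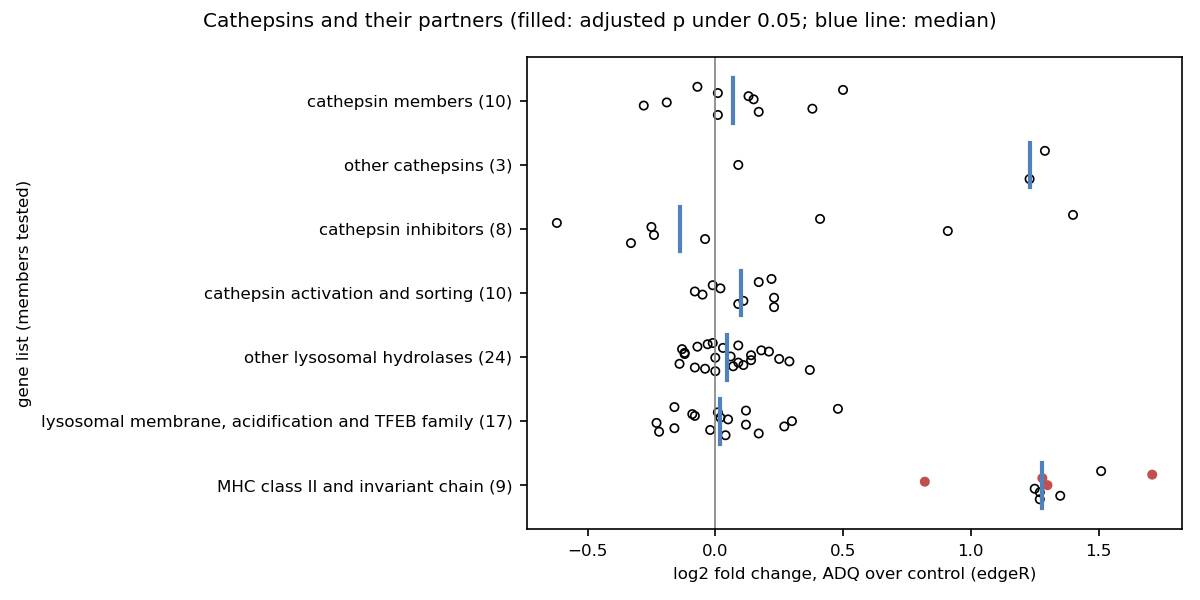
Log2 fold change, ADQ over control (x axis), of each tested gene of the cathepsins and 6 related lists; filled red points passed in edgeR over all genes and blue lines are medians. The 4 filled points are MHC class II list members, whose median is 1.28, while the 10 cathepsins have a median of 0.07 and the 24 other hydrolases 0.04.

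Inside the groups, ADQ 3 was the lowest ADQ library in 7 of the 10 and ADQ 2 the highest in 5, and control 1 was the highest control in 4. The genes closest to each member in their deviations from the group means over the 10 libraries, among 11135 other protein-coding genes, were different for each. For Ctsd they were Pld3, Cmtm8 and Ube2k, each with a correlation of 0.99. For Ctss they were Nsrp1, Arpc2 and Upf2 at 0.97, 0.96 and 0.96. For Ctsh they were the myeloid genes Clec4a3 and Apbb1ip and the RNA editing enzyme gene Apobec1 at 0.95, 0.95 and 0.94. For Ctsb they were Hmox1, C1qtnf7 and Zfp277 at 0.93, 0.93 and 0.92, and for Ctsk Naa15, Cd300ld and Cpxm1 at 0.91, 0.88 and 0.88. Ctsc was closest to Hsdl2, Erp44 and Cav2 (0.96 each), Ctsf to Pink1, Cndp2 and Fbxo27 (0.99, 0.97 and 0.96) and Ctsz to Galk1, Sqor and Rnf181 (0.99, 0.98 and 0.98). Ctsa was closest to Clns1a, Mus81 and Pip4p1 (0.97, 0.97 and 0.96) and Ctsl to Dbnl, Pes1 and H3f3b (0.92, 0.92 and 0.91). These are the highest of many values over few libraries that share depth and dissection, so they describe these libraries only.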

How the data were processed

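Per the labels' protocols, NucleoSpin columns followed TRIzol and cDNA was made with SMARTer. Per the submitters' processing notes, bcl2fastq, DRAGEN, edgeR, limma and GRCm38 were used; the sources used here do not give the settings or the counting strand. The authors deposited whole-number counts per gene, not normalized, in 55774 rows, of which 287 repeats were removed. The authors also deposited log2 CPM per library and log2 fold changes with limma's column names, per the file headers. The p-values and adjusted p-values beside them are the authors', per the file headers. The authors' deposited score columns (moderated statistic, log odds, signed fold) were not used.

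Counts were fitted by edgeR 4.0.16 in R 4.3.3: filterByExpr (minimum count 10, total 15), TMM, a robust quasi-likelihood fit of group, and Benjamini-Hochberg adjustment over 20684 genes at 0.05. CPM is TMM-scaled, and standard errors are the log2 fold change over the root of F. Alternatives were DESeq2 1.42.0, limma 3.58.1 voom, other scalings and filters, each library left out and a replicate block. The fit was checked on simulated data. Libraries differed by more than sampling noise (chi-square per degree of freedom at least 33.9), so none was counted as a duplicate.

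Members and lists were chosen with earlier results of these data known. Named genes were the members, each list's 4 smallest p-values, genes of the lists and markers that passed, and each member's 3 closest genes (mean of at least 5 CPM, prior count 2). Some items that this rule or the motif search names are not reported here. GENCODE M21 holds 99.5% of the identifiers, and RefSeq promoter windows matched 8 of 10 members.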

Additional observations from a re-analysis of the deposited data

Results flagged for a closer look

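Of 22 groups of 5 values examined (each cathepsin and their sum, in ADQ and in control), 1 held a library far from the rest, about the share of 1 in 20 that chance gives. Control 5 was high in Ctsh, the aminopeptidase, at 249 CPM, against 209 to 219 CPM in the other controls. The same library was the highest control in the summed T and NK cell markers (84.8 CPM) and MHC class II genes (4769.9 CPM), and their part in its Ctsh level was not tested.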

How the results depend on the processing

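Cathepsin calls were 0 in either direction with RLE or upper quartile scaling, a stricter filter, a non-robust fit and each library left out (0 to 0). Ctss was called higher, making 1, with library size alone, no low-count filter, DESeq2 and the replicate block, and voom with quality weights called 2, adding Ctsc; the Ctss log2 fold change ran from 0.43 to 0.58 over 19 alternatives. Library size alone moved the median of all genes to 0.10, against which its Ctss value of 0.58 is read. The replicate block also called 1 lower, Ctsd (edgeR adjusted p = 0.0376), and over all genes 392 higher and 302 lower. Over all genes the same-numbered libraries correlated at -0.113 to 0.163, and 1 of 5 matched its own number best. Yet the cathepsin sum was highest in library 1 (13198 CPM in ADQ, 13247 CPM in control). It was lowest in library 3 (10494 CPM in ADQ, 10943 CPM in control). What same-numbered libraries share was not tested. With the block the inhibitor list had 1 call higher and 1 lower (Serpinb9 and Cst3) and the other hydrolases 2 higher; without the low-count filter the inhibitors had 1 lower. Over all genes, calls were 153 higher and 18 lower; 32 were lower without the filter, 502 higher and 266 lower with DESeq2, 552 and 176 with voom, 41 lower without robust moderation, and 69 to 316 higher and 5 to 41 lower with 1 library left out. The cause of these moves was not tested. Values near 0 turned sign: Ctsl to -0.0015 (RLE), -0.0028 (DESeq2), -0.0028 (voom) and -0.03 to 0.06 with 1 library left out (main value 0.01); Ctsa to -0.0018 (voom) and -0.01 to 0.06 with 1 library left out; Ctsz to 0.01 (library size alone). Spread between libraries, not depth, limits these genes.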
